A study of Mus musculus with 6 samples.

Results

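The matrix proteases of the MMP and ADAMTS families and their inhibitors, the TIMPs, were read in cultured mouse cells labelled lung microvascular endothelial cells. Members were the protein-coding genes of the deposited table whose symbol is Mmp, Timp or Adamts followed by a number, which gave 44 of 21999 genes, 22 of them MMP, 4 TIMP and 18 ADAMTS genes. Of these, 31 (15 MMP, 3 TIMP and 13 ADAMTS genes) had enough counts to be compared between genotypes, and 13 did not.

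Matrix metalloproteinases (MMPs) are zinc-dependent enzymes, made as inactive proforms, that cut collagens, proteoglycans and other proteins outside the cell. Tissue inhibitors of metalloproteinases (TIMPs) bind and block them, and *Timp2* also presents the proform of *Mmp2* to the membrane-anchored *Mmp14*, which activates it. ADAMTS enzymes are secreted relatives with thrombospondin motifs, among which are proteoglycan-cutting enzymes, procollagen processing enzymes and the protease of von Willebrand factor, and in blood vessels the 3 families remodel the basement membrane and the surrounding matrix.

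The RNA was total RNA, from 3 independent isolations for each of the genotypes *Ptprz1*+/+ and *Ptprz1*-/-, both of the SV129/B6 strain, and the comparison asks which transcripts differ without the receptor tyrosine phosphatase that *Ptprz1* encodes. For an isolation, lungs of 2 to 5 mice aged 3 to 8 weeks were pooled, so no library is of 1 animal. The cells were cultured untreated in medium with serum and endothelial growth supplement, and at confluence were picked with beads against CD31, the product of *Pecam1*. Reads counted on genes were deposited for each library without normalization, together with FPKM, which divides the counts by gene length and library size.

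The libraries held 14496881 to 17709663 counts. *Ptprz1* itself had 197 to 1837 counts in the *Ptprz1*+/+ libraries and 895 to 1320 in the others, a log2 fold change of 0.60 (SE, standard error, 0.70, adjusted p = 1.00 in edgeR's quasi-likelihood test), so the target did not separate the genotypes, and each direction rests on the labels. Of 12 blood endothelial markers all 12 passed the filter on low counts, yet their summed level was 17.2 to 36.9 CPM in the replicates 1 and 2 of both genotypes, and 569 and 186 CPM in replicate 3 of *Ptprz1*+/+ and of those labelled *Ptprz1*-/-. These replicate 3 libraries therefore stand apart, and in the other 4 the defining markers of the labelled cell type were low, *Pecam1* itself being at 4.4 CPM or below. The 10 fibroblast markers summed to 19302 to 26807 CPM across the *Ptprz1*+/+ libraries and 12396 to 28347 in the others, and 0 of the 7 epithelial markers passed the filter. In bulk RNA, fewer cells of a type and less RNA per cell cannot be told apart.

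A run of 9 MMP genes lies on mouse chromosome 9 between positions 7272514 and 7699585 of GRCm38, 427 kb in all, in the order *Mmp13*, *Mmp12*, *Mmp1b*, *Mmp3*, *Mmp1a*, *Mmp10*, *Mmp8*, *Mmp27* and *Mmp7*. It holds the most abundant MMP, *Mmp3*, as well as *Mmp7*, which had 2 counts in 1 library. In this run, 7 of the 9 genes held a pair of promoter motifs, which none of the 21 other members with a promoter sequence held. For this reason the 150 bases before the transcription start of the 6 tested genes of the run are printed here, 5′ to 3′. They are the RefSeq sequences of GRCm38.p6, with capitals marking the AP-1 motif TGANTCA and the TATA motif TATAAA, and for *Mmp12* the downstream of its RefSeq starts is shown, whose TATAAA lies just after the start and so outside the letters printed. The last 3 capitals of *Mmp8* belong to a TATAAA on the opposite strand that crosses the start.
Mmp13 (chr9:7272364-7272513, plus strand): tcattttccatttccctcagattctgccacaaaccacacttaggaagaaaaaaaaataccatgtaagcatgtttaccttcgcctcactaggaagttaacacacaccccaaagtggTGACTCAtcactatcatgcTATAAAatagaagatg
Mmp12 (chr9:7347224-7347373, plus strand): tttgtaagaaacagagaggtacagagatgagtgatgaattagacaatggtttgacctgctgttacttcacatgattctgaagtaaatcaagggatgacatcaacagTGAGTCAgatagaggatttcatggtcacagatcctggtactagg
Mmp1b (chr9:7388027-7388176, minus strand): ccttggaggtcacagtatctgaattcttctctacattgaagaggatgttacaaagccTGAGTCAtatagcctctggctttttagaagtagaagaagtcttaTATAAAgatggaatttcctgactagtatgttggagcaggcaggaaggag
Mmp3 (chr9:7445672-7445821, plus strand): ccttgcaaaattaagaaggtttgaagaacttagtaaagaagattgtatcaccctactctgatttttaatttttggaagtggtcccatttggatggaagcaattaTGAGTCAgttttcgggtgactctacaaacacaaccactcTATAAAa
Mmp10 (chr9:7502192-7502341, plus strand): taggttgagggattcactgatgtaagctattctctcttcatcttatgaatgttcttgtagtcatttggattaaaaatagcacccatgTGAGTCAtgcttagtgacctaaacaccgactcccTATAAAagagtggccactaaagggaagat
Mmp8 (chr9:7558279-7558428, plus strand): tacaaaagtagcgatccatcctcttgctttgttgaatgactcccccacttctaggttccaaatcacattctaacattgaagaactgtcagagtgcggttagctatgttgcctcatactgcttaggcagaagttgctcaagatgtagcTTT

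Of the 44 members, 30 had a promoter in the RefSeq table (250 bases before to 50 after the start), and both motifs were searched on both strands over these 300 bases. Some genes have several promoters there, and a gene counts where any of them matches, whereas the percentages given beside are over single promoters and not over genes. TGANTCA was found for 7 members, all in the chromosome 9 run (7 of 9 there, 0 of 21 elsewhere), against 7.81% of 32851 promoters in the table. TATAAA was found for 8 of the 9 and for *Adamts1* and *Mmp21* among the 21 others, against 13.6% of promoters. The same 7 genes of the run (*Mmp13*, *Mmp12*, *Mmp1b*, *Mmp3*, *Mmp1a*, *Mmp10* and *Mmp7*) held both motifs, which 1.54% of promoters do. *Mmp8* had TATAAA alone and *Mmp27* had neither. The AP-1 letters began 35 bases before the start in *Mmp13*, 44 in *Mmp12*, 46 in *Mmp3*, 63 in *Mmp10* and *Mmp7*, 73 in *Mmp1a* and 93 in *Mmp1b*. A match of letters is a description and does not show that a factor binds there.

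The cells expressed a few of these genes at very high level and most at low level. *Timp2* had the highest mean FPKM over the 6 libraries, 784, which was rank 68 of all 21999 genes. It was followed by *Mmp3* (stromelysin 1, a broad matrix protease) at 728 (rank 75), *Mmp14* at 587 (rank 99), *Timp1* at 566 (rank 107) and *Mmp2* (gelatinase A) at 376 (rank 153). Below these 5 came *Timp3* at 111, *Mmp11* at 92.6, *Adamts2* at 81.8, *Adamts5* at 76.9, *Adamts1* at 59.8, *Mmp23* at 39.9 and *Mmp19* at 27.0 FPKM. The first 5 exchanged places from library to library, so their order within a library does not exceed their spread, whereas each of them lay above *Timp3* in each of the 6 libraries except that *Mmp3* and *Mmp2* were below it in the library labelled *Ptprz1*-/- replicate 1 (137 and 249 against 327 FPKM). Together the 44 members took 0.781% to 1.29% of all counts of a library.

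**Figure D1:**
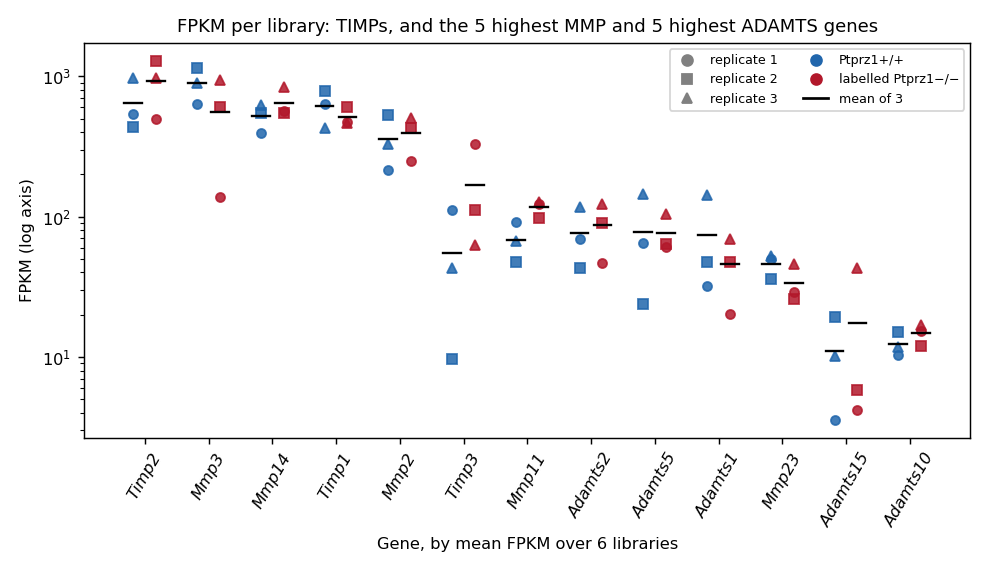
FPKM on a log axis for the TIMPs that were tested and the 5 MMP and 5 ADAMTS genes of highest mean, with 1 point per library, coloured by genotype and shaped by replicate, and a bar at the mean of 3. *Timp3* runs from 9.71 FPKM in *Ptprz1*+/+ replicate 2 to 327 in the library labelled *Ptprz1*-/- replicate 1, while *Mmp14* stays between 393 and 835.

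Between the genotypes, the proteases and inhibitors were not distinguishable at the threshold used. None of the 31 tested members had an adjusted p under 0.05 in edgeR's quasi-likelihood test, adjusted after Benjamini and Hochberg over 13609 genes (adjusted p = 1.00 for each of the 31), beside 0% of all genes tested, and DESeq2's Wald test also called 0 (lowest adjusted p = 0.823), beside 0.22% of all genes. At an unadjusted p under 0.05 there were 2 of 31 members, or 6.45%, against 2.69% of all genes. These were *Mmp11*, higher in the libraries labelled *Ptprz1*-/- (1.13% of all genes were higher), and *Adamts14*, lower (1.56% of all genes were lower). They were also the 2 members whose libraries did not overlap between genotypes, a share of 6.45% that lies near the 7.28% of all genes (3.55% higher and 3.73% lower). The fitted log2 fold change was above 0 for 13 members and below 0 for 18, with a median of -0.073 over the members and -0.0047 over all genes tested. The median was -0.049 for the MMP genes, 0.49 for the TIMPs and -0.34 for the ADAMTS genes.

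**Figure D2:**
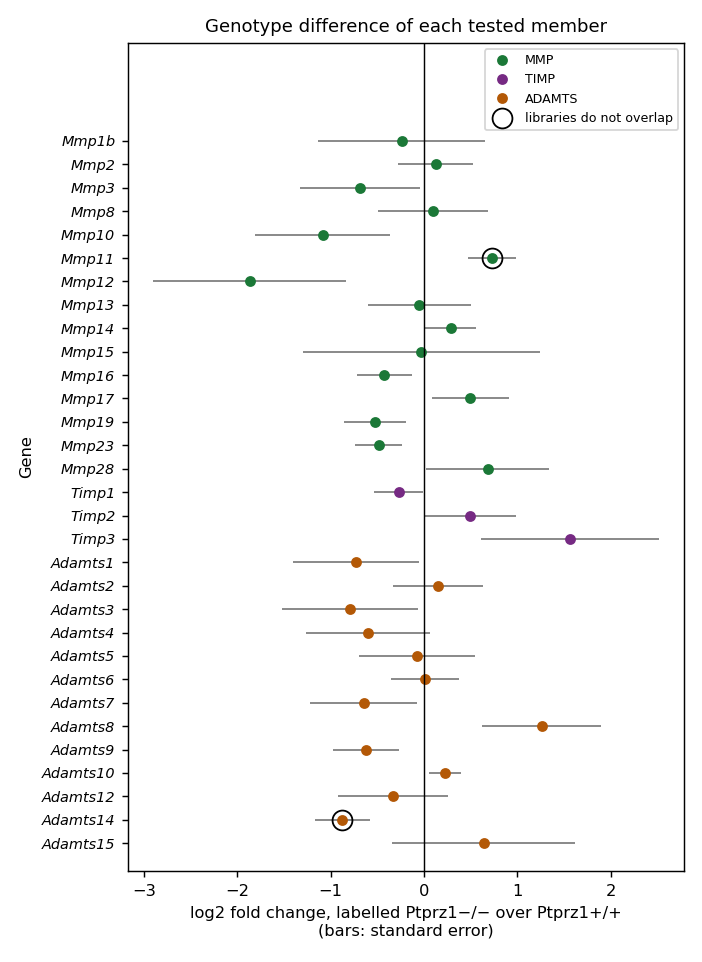
Log2 fold change of each tested member, libraries labelled *Ptprz1*-/- over *Ptprz1*+/+, coloured by family, with bars of 1 standard error. Open circles mark *Mmp11* (0.73) and *Adamts14* (-0.88), the 2 genes whose libraries do not overlap, and the longest bars belong to *Mmp15* (1.27), *Mmp12* (1.03) and *Adamts15* (0.98).

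Without both replicate 3 libraries, the ones richest in endothelial markers, the edgeR count was again 0, with 1 of 31 members (*Adamts14*, 3.23%) at an unadjusted p under 0.05, against 1.88% of all genes. The number of members at that unadjusted level moved with single libraries. It was 6 of 31 (19.4%, against 2.51% of all genes) without *Ptprz1*+/+ replicate 2, namely *Mmp8*, *Mmp11*, *Mmp16*, *Mmp23*, *Adamts8* and *Adamts14*. It was 4 of 32 (12.5%) both without *Ptprz1*+/+ replicate 1 (4.84% of all genes) and without that labelled *Ptprz1*-/- replicate 3 (2.86% of all genes). It was 1 of 31 without *Ptprz1*+/+ replicate 3 (*Mmp19*, 3.23%, against 3.53% of all genes) and 1 of 33 without the library labelled *Ptprz1*-/- replicate 1 (*Adamts12*, 3.03%, against 2.23% of all genes). None of these members passed the adjusted threshold in any of these fits.

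*Mmp11*, stromelysin 3 (chromosome 10, 75923222 to 75932502, minus strand), is activated by furin inside the cell and is typical of stromal fibroblasts. It had 213, 106 and 159 CPM (counts scaled to the TMM-adjusted library size, as for every CPM value here) in replicates 1, 2 and 3 of *Ptprz1*+/+, against 274, 237 and 280 CPM in the libraries labelled *Ptprz1*-/-. The lowest of the latter, 237, lay above the highest of the former, 213. The means were 159 ± 53.3 and 264 ± 23.3 CPM (SD, n = 3 each), and the log2 fold change was 0.73 (SE 0.26, unadjusted p = 0.0287, rank 188 of all genes by p, adjusted p = 1.00, edgeR). By exact two-sided permutation p was 0.10, the smallest that 3 libraries against 3 allow. When single libraries were left out, it lay between 0.51 and 1.00 on the log2 scale. Its exons share 155 bases (5.58%) with *Chchd10* on the opposite strand, so the count of *Mmp11* is uncertain to the extent that strand was not used. *Chchd10* had 1729, 422 and 264 counts in replicates 1, 2 and 3 of *Ptprz1*+/+, against 2826, 1461 and 550 in the libraries labelled *Ptprz1*-/-.

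*Adamts14* (chromosome 10, 61197112 to 61273438, minus strand), which trims the amino end of procollagens, was at 31.4, 23.4 and 29.7 CPM over the *Ptprz1*+/+ libraries, against 15.6, 9.68 and 20.7 in those labelled *Ptprz1*-/-. All 3 of the latter lay below the lowest *Ptprz1*+/+ value. The means were 28.2 ± 4.24 and 15.3 ± 5.54 CPM (SD, n = 3 each), the log2 fold change was -0.88 (SE 0.29, unadjusted p = 0.0223, rank 137, adjusted p = 1.00, edgeR), and the exact permutation test gave p = 0.10. It stayed between -1.16 and -0.63 when single libraries were left out.

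The other procollagen N-proteinases did not separate by label. *Adamts2*, the most abundant ADAMTS gene, was at 514, 307 and 880 CPM over the *Ptprz1*+/+ libraries, against 329, 693 and 862 in those labelled *Ptprz1*-/-, a log2 fold change of 0.15 (SE 0.49). *Adamts3* was at 2.24, 16.8 and 6.44 against 4.22, 3.02 and 7.46 CPM, a log2 fold change of -0.79 (SE 0.73) that rests on *Ptprz1*+/+ replicate 2, without which it was 0.17. The genotypes overlapped in both.

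The inhibitors were led by *Timp1* and *Timp2*, and the largest differences among single libraries were those of *Timp3*. *Timp1*, a soluble inhibitor encoded on the X chromosome within the gene *Syn1*, was at 575, 679 and 390 CPM over the *Ptprz1*+/+ libraries, against 401, 568 and 392 in those labelled *Ptprz1*-/-. It was among the steadiest members, with means of 548 ± 146 and 454 ± 99.4 CPM (SD, n = 3 each) and a log2 fold change of -0.27 (SE 0.27). *Timp2* was at 2035, 1562 and 3733 against 1792, 5079 and 3440 CPM, a log2 fold change of 0.49 (SE 0.50), so the lowest and the highest library differed 3.25 times and the genotypes overlapped.

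*Timp3* (chromosome 10, 86300372 to 86349506), the inhibitor that stays bound to the matrix and also blocks several ADAMTS enzymes, had 538, 44.6 and 209 CPM in replicates 1, 2 and 3 of *Ptprz1*+/+. In the libraries labelled *Ptprz1*-/- it was at 1495, 560 and 286 CPM. *Ptprz1*+/+ replicate 1 lay within the range of the other genotype, and the highest library was 33.5 times the lowest. The log2 fold change was 1.56 (SE 0.96, unadjusted p = 0.150, edgeR; exact permutation p = 0.20), and it was 0.68 when the library labelled *Ptprz1*-/- replicate 1 was left out and 2.62 without *Ptprz1*+/+ replicate 1. Of the smooth muscle and pericyte markers (9 of 9 passed the filter, sums of 866 to 4435 CPM in *Ptprz1*+/+ and 1588 to 4611 in the others), the contractile and filament genes *Acta2*, *Tagln*, *Myh11*, *Cnn1* and *Des* were highest in replicate 1 of both genotypes. The pericyte genes *Pdgfrb*, *Cspg4*, *Rgs5* and *Notch3* were instead lowest, within its genotype, in the library labelled *Ptprz1*-/- replicate 1. The library labelled *Ptprz1*-/- replicate 1 was also highest in the mesothelial markers (7 of 8 passed the filter, sums of 56.3 to 219 CPM in *Ptprz1*+/+ and 115 to 1383 in the others, 1 of them, *Lrrn4*, higher at an unadjusted p under 0.05), and no marker of either list was at 0 in all libraries. The part of these cells in the *Timp3* values was not tested. *Timp3* lies within *Syn3* and shares 1733 exonic bases (21.3%) with it on the opposite strand. Whether reads were counted by strand is not known, so reads from these bases may be missing from both genes. The 2 to 15 counts of *Syn3* therefore cannot show whether the *Timp3* count was affected. *Timp4*, the 4th inhibitor, had 2, 28 and 6 counts against 3, 2 and 9, and was not tested.

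The mix of inhibitors differed from isolation to isolation. *Timp1* made up 49.6%, 64.0% and 29.6% of the summed TIMP FPKM in replicates 1, 2 and 3 of *Ptprz1*+/+, against 36.2%, 30.2% and 31% in the libraries labelled *Ptprz1*-/-. The share of *Timp3* ran from 0.788% in *Ptprz1*+/+ replicate 2 to 25.3% in the library labelled *Ptprz1*-/- replicate 1. The summed MMP FPKM over the summed TIMP FPKM was 1.13, 2.02 and 1.41 in the *Ptprz1*+/+ libraries and 0.903, 0.901 and 1.69 in those labelled *Ptprz1*-/-, so the ranges overlapped. The summed level was 1993 ± 521 and 1838 ± 680 FPKM for the MMP genes, 1322 ± 109 and 1602 ± 370 for the TIMPs and 299 ± 146 and 273 ± 115 for the ADAMTS genes (SD, n = 3 each, in the same order of genotypes).

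**Figure D3:**
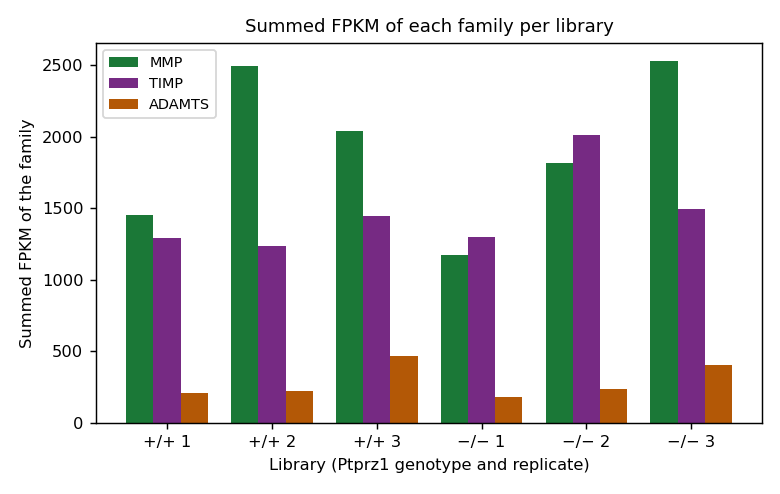
Summed FPKM of the MMP, TIMP and ADAMTS genes in each of the 6 libraries, as bars from 0. The MMP sum exceeds the TIMP sum in each library except those labelled *Ptprz1*-/- replicates 1 and 2, and the ADAMTS sum is the lowest in each, from 179 to 468 FPKM.

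The membrane-anchored MMPs were dominated by *Mmp14*, whose highest library was at 2.00 times the lowest. *Mmp14* was at 1041, 1395 and 1682 CPM over the *Ptprz1*+/+ libraries, against 1425, 1512 and 2077 in those labelled *Ptprz1*-/-, a log2 fold change of 0.28 (SE 0.27). *Mmp2*, the gelatinase that *Mmp14* and *Timp2* activate, was at 670, 1571 and 1032 against 733, 1376 and 1458 CPM, a log2 fold change of 0.12 (SE 0.40), and the genotypes overlapped in both genes. The 3 genes of this activation complex, *Mmp14*, *Mmp2* and *Timp2*, took 38.9%, 38.4% and 48.8% of the members' summed FPKM in the *Ptprz1*+/+ libraries and 49.7%, 55.9% and 52.1% in those labelled *Ptprz1*-/-. The lowest share of the libraries labelled *Ptprz1*-/-, that of replicate 1, lay just above the highest *Ptprz1*+/+ share, and no test was run on it. In that library *Mmp3*, which enters the members' sum, was at 137 FPKM, against 609 to 1153 in the others. A low *Mmp3* makes the sum smaller and the share larger, so the separation rests partly on that gene in 1 library. Taken singly, each of the 3 genes overlapped between genotypes. Of all genes tested 7.28% did not overlap, which is a rate for single genes and no background for a share of a sum.

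*Mmp15*, a further membrane-anchored MMP, had the largest spread of the tested members within a genotype, at 0.121, 1.59 and 5.05 CPM across the *Ptprz1*+/+ libraries and 0.372, 1.17 and 5.09 in those labelled *Ptprz1*-/-. In each genotype replicate 3 was highest and replicate 1 lowest, and the log2 fold change was -0.03 (SE 1.27). The highest library had 42.1 times the level of the lowest, a ratio that rests on few reads. The replicate 1 libraries had 2 counts in *Ptprz1*+/+ and 6 in the one labelled *Ptprz1*-/-. The replicate 3 libraries are those with the high blood endothelial markers (sums of 569 and 186 CPM), and the part of these cells in the *Mmp15* values was not tested. *Mmp16* was at 15.1 to 32.2 CPM across the *Ptprz1*+/+ libraries and 15.2 to 18.4 in the others, and *Mmp17*, which is held by a lipid anchor, at 5.00 to 12.1 and 8.58 to 18.2. *Mmp24* (0 or 1 counts) and *Mmp25* (0 to 5 counts) were not tested. *Mmp23*, a small membrane-bound MMP, was at 73.3, 49.8 and 77.8 against 40.6, 39.6 and 63.1 CPM. Its libraries overlapped, and the log2 fold change was -0.49 (SE 0.25).

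In the chromosome 9 run, *Ptprz1*+/+ replicate 2 was the highest library for 4 of the 6 tested genes (*Mmp12*, *Mmp3*, *Mmp10* and *Mmp8*) and for 7 of all 9. That library was also the highest for 26.9% of all genes tested. The untested genes among the 7, *Mmp1a*, *Mmp27* and *Mmp7*, had at most 24 counts in a library. *Mmp3* was at 1157, 2018 and 1671 CPM over the *Ptprz1*+/+ libraries, against 239, 1160 and 1614 in those labelled *Ptprz1*-/-. A single library, the one labelled *Ptprz1*-/- replicate 1, lay far below the other 5, and without it the log2 fold change of -0.69 (SE 0.65) was -0.21. In that library *Mmp3* made up 11.7% of the summed MMP FPKM, against 33.6% to 46.3% in the other 5. *Mmp10* (stromelysin 2), whose transcript matches that of *Mmp3* over 522 bases at 91.3% identity so that reads may be split between them, was at 10.3 to 49.8 CPM across the *Ptprz1*+/+ libraries and 7.0 to 18.4 in the others.

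*Mmp12*, the elastase known from macrophages, was at 1.09, 16.7 and 4.48 CPM against 3.97, 1.17 and 0.925. Its log2 fold change of -1.87 (SE 1.03, unadjusted p = 0.117, edgeR) went to -0.46 without *Ptprz1*+/+ replicate 2. *Mmp8*, the collagenase of neutrophils, was at 25.1, 91.0 and 24.6 against 30.0, 51.1 and 69.6 CPM. The gelatinase *Mmp9*, also known from neutrophils, had 92 counts in *Ptprz1*+/+ replicate 2 and 0 to 3 in each other library. Being near 0 outside that library, it did not pass the filter on low counts and was not tested. The summed leukocyte markers were highest in the same library (3 of the 7 in the table passed the filter, sums of 6.04 to 50.6 CPM in *Ptprz1*+/+ and 5.28 to 11.2 in the others, 1 of them, *Csf1r*, lower in the libraries labelled *Ptprz1*-/- at an unadjusted p under 0.05), with 704 counts of *S100a8*, a calcium-binding protein of neutrophils, there and 7 to 100 elsewhere. Without *S100a8* the sum was 11.9 CPM in that library and 11.4 in *Ptprz1*+/+ replicate 3, and 4 of the 7 markers had their highest level in the former. No marker of that list in the table was at 0 in all libraries, and *Ptprc*, the pan-leukocyte marker, had 1 to 9 counts per library. The part of leukocytes in these values was not tested.

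**Figure D4:**
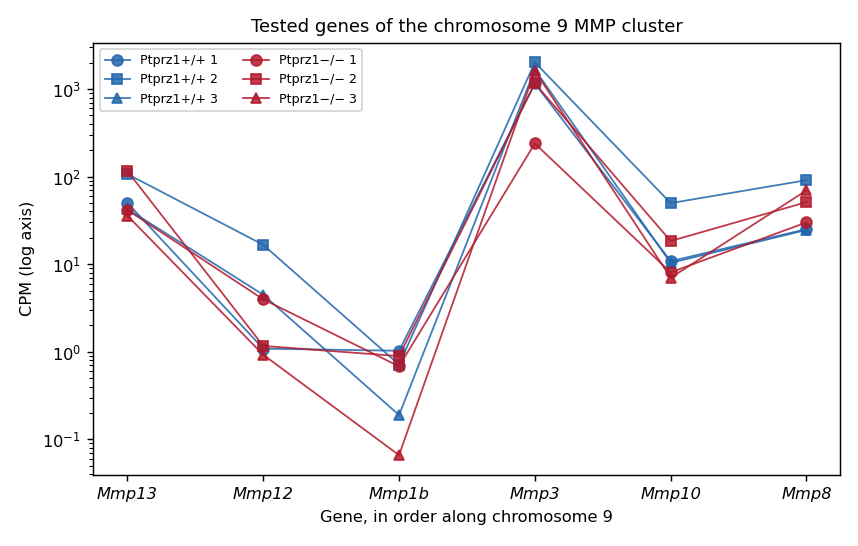
CPM on a log axis of the 6 tested genes of the chromosome 9 run in their order along the chromosome, with 1 line per library, blue for *Ptprz1*+/+ and red for the libraries labelled *Ptprz1*-/-. *Ptprz1*+/+ replicate 2 (blue squares) is the top line at *Mmp12*, *Mmp3*, *Mmp10* and *Mmp8*, and the library labelled *Ptprz1*-/- replicate 1 lies lowest at *Mmp3* (239 CPM).

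*Mmp13*, collagenase 3, was at 42.7 to 107 CPM across the *Ptprz1*+/+ libraries and 35.9 to 116 in the others, with replicate 2 the highest of each genotype. *Mmp1b*, a mouse relative of interstitial collagenase, had 1 to 17 counts per library and was at 1.03, 0.715 and 0.189 CPM against 0.682, 0.892 and 0.066, a log2 fold change of -0.24 (SE 0.89). Its transcript matches that of *Mmp1a* over 1317 bases at 90.6% identity and 157 exonic bases lie opposite *Mmp12*, so its low count is uncertain. *Mmp1a* had 24 counts in *Ptprz1*+/+ replicate 2 and 0 to 6 elsewhere, *Mmp27* had 2 to 17 counts and *Mmp7* had 2 counts in 1 library. None of these 3 was tested.

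The remaining MMPs of the table were low or overlapped between genotypes. *Mmp19* was at 69.2 to 167 CPM against 65.9 to 85.2, and shares 789 exonic bases (22.3%) with *Tmem198b* on the opposite strand (182 to 444 counts). *Mmp28* (epilysin) was at 0.989 to 8.16 against 6.87 to 8.30 CPM, with *Ptprz1*+/+ replicate 2 the lowest library. *Mmp21* had 0 to 3 counts and was not tested.

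Among the ADAMTS genes, the proteoglycan-cutting *Adamts1*, *Adamts5* and *Adamts15* varied more between isolations than between the labelled genotypes. *Adamts1* was at 158, 226 and 719 CPM over the *Ptprz1*+/+ libraries, against 95.5, 244 and 326 in those labelled *Ptprz1*-/-, a log2 fold change of -0.73 (SE 0.68) that turned to 0.21 without *Ptprz1*+/+ replicate 3. *Adamts5*, the main aggrecanase of mouse cartilage, was at 532, 189 and 1204 against 477, 544 and 810 CPM, a log2 fold change of -0.07 (SE 0.62). The 2 genes are neighbours on chromosome 16, 55.1 kb apart on the minus strand, and both were highest in replicate 3 of each genotype. The replicate 3 libraries are those richest in endothelial markers, and the part of these cells was not tested.

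*Adamts15* was at 21.6, 111 and 62.0 CPM over the *Ptprz1*+/+ libraries, against 24.0, 36.8 and 243 in those labelled *Ptprz1*-/-. One library decided its sign, since the log2 fold change of 0.64 (SE 0.98) was -1.10 without the library labelled *Ptprz1*-/- replicate 3. Its neighbour *Adamts8*, 20.1 kb away on chromosome 9, was at 0.252 to 0.770 CPM against 0.558 to 1.72, a log2 fold change of 1.26 (SE 0.63, unadjusted p = 0.0905, edgeR). *Adamts4* (aggrecanase 1) was at 13.4 to 44.8 CPM across the *Ptprz1*+/+ libraries and 10.3 to 42.5 in the others, and *Adamts9* at 68.4 to 140 and 41.2 to 85.1. *Adamts20* had 1 to 7 counts and was not tested.

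*Adamts10*, which acts on fibrillin microfibrils, was the member that varied least, at 43.4, 60.5 and 50.4 CPM across the *Ptprz1*+/+ libraries and 60.7, 52.5 and 67.2 in those labelled *Ptprz1*-/- (log2 fold change 0.23, SE 0.17). *Adamts6*, its closest relative, was at 3.98 to 10.6 against 7.01 to 8.19 CPM. *Adamts7* and *Adamts12*, which cut cartilage oligomeric matrix protein, were at 29.3 to 160 against 45.2 to 67.0 CPM and at 14.1 to 23.3 against 5.83 to 29.1 CPM. The genotypes overlapped in each of these 4 genes. *Adamts13*, the protease of von Willebrand factor, had 2 counts in *Ptprz1*+/+ replicate 1 and 0 in the other 5 libraries. *Adamts16* (0 to 10 counts), *Adamts17* (0 to 5 counts) and *Adamts19* (1 count in 1 library) were not tested either.

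The members spread more between isolations of 1 genotype than genes of the table generally did. The SD of log2 CPM within a genotype had a median of 0.819 over the 31 members and 0.291 over all genes tested, and was above the latter for 30 of 31, with *Adamts10* (0.211) the exception. It exceeded 1 for 11 members (35.5%) and for 8.25% of all genes. Set against genes in the same range of mean CPM, 29 of 31 members were above the median of that range. Up to 10 CPM the median was 1.10 over 7 members and 0.496 over all genes, and from 10 to 100 CPM 0.714 over 14 and 0.226. In the range from 100 to 1000 CPM it was 0.865 over 6 members and 0.239 over all genes. Above 1000 CPM the medians lay closer, at 0.644 over 4 members and 0.411 over all genes. Of the 31, 11 were highest in *Ptprz1*+/+ replicate 2 (35.5%, against 26.9% of all genes) and 7 in the library labelled *Ptprz1*-/- replicate 3 (22.6%, against 11.7%).

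**Figure D5:**
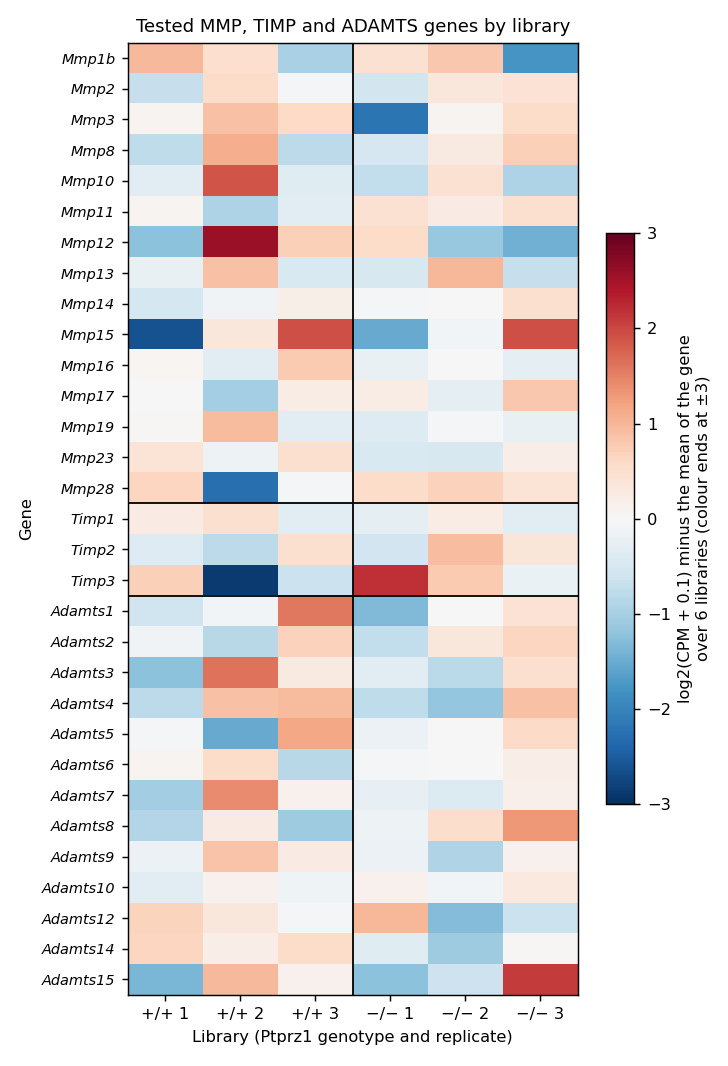
Level of each of the 31 tested members in each library, as log2(CPM + 0.1) minus the mean of the gene over 6 libraries, red above and blue below the mean. The strongest colours follow single libraries, such as *Timp3* in *Ptprz1*+/+ replicate 2 (44.6 CPM) and in the library labelled *Ptprz1*-/- replicate 1 (1495 CPM), and *Mmp15* by replicate number.

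The other genes of the pathway were read from lists of plasminogen activation, of activators and inhibitors of MMPs, of ADAM sheddases, of ADAMTS-like proteins and of substrates. Of the 48 genes listed, 47 were in the table and 39 were tested. Of these, 0 passed the adjusted threshold in edgeR's quasi-likelihood test or DESeq2, beside 0% and 0.22% of all genes. The median log2 fold change was -0.049. At an unadjusted p under 0.05 in edgeR, 1 of the 39 was higher and 1 lower, against 1.13% and 1.56% of all genes. The libraries did not overlap between genotypes for 1 of the 39, against 7.28% of all genes. The medians were -0.39 for the 7 tested genes of plasminogen activation, -0.049 for the 11 activators and inhibitors, -0.12 for the 8 ADAMs, 0.51 for the 5 ADAMTS-like genes and -0.30 for the 8 substrates. The gene that was higher was *Papln*, papilin, a matrix glycoprotein related to the ADAMTS enzymes but without their protease domain. It was at 0.302, 0.220 and 0.442 CPM over the *Ptprz1*+/+ libraries, against 2.05, 0.686 and 0.859 in those labelled *Ptprz1*-/-, so the libraries did not overlap (log2 fold change 1.89, SE 0.58, unadjusted p = 0.0161, adjusted p = 1.00, edgeR, on 4 to 33 counts). The gene that was lower was *Adam8*, a membrane-anchored metalloproteinase, at 1.57, 3.13 and 0.820 against 0.620, 0.892 and 0.661 CPM, where the highest library labelled *Ptprz1*-/- lay above the lowest *Ptprz1*+/+ library (log2 fold change -1.34, SE 0.55, unadjusted p = 0.0482, adjusted p = 1.00, edgeR).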

How the data were processed

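Total RNA of 6 cultures labelled as lung microvascular endothelial cells was analysed, 3 labelled *Ptprz1*+/+ and 3 labelled *Ptprz1*-/-. They were grouped by the genotype in the sample labels, and replicates are separate isolations of pooled mice. The authors deposited 1 table of 21999 genes with the read count of each gene in each library, not normalized. The authors' FPKM values in the same table were used only to compare levels between genes, and their gene length column (another measure) belongs to the deposited FPKM. The table also holds the authors' group means, log2 fold changes and p-values, and 3 further files list the genes the authors called. None of these was used. The submitters' processing notes name STAR, TopHat, HTSeq, DESeq2 and edgeR and the builds GRCm38 and mm10, without their roles. Versions, the annotation release and the use of strand are not given in the sources used here, and reads shared by near-identical or overlapping genes may be split or lost. GENCODE M21 held 98.9% of the gene identifiers, and 99.9% of these at an overlapping position.

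The tests used the quasi-likelihood functions of edgeR 4.0.16 (R 4.3.3) after TMM scaling and filterByExpr, with no term but genotype, on 13609 genes, with Benjamini-Hochberg adjustment over all of them and a threshold of 0.05. The standard error is the absolute log2 fold change over the square root of F. CPM is on the TMM-scaled library size, and the SD of log2 CPM uses a prior count of 2. Depth was 14496881 to 17709663 counts per library, so members under about 10 counts rest on few reads. Single members were also compared by exact two-sided permutation. The functions were tested on simulated counts.

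The members and all lists were chosen with earlier results of these data known. Values in every library are given for members with an unadjusted p under 0.05 or libraries that do not overlap, the TIMPs, the 5 MMP and 5 ADAMTS genes of highest mean FPKM and the 6 tested members of largest SD within a genotype. Of the other pathway genes, those with an unadjusted p under 0.05 or without overlap are named. Every other member is given by its range of levels or counts, and marker genes are named from the marker lists. *Mmp8*, *Mmp9*, *Mmp1a*, *Mmp7* and *Adamts13* were given values of single libraries after these were seen. Alternatives were DESeq2 1.42.0, upper-quartile normalization, no filter, at least 10 counts in every library, each library left out, both libraries numbered 3 left out, and the replicate number as a block. Transcripts were aligned to each other with minimap2 2.31, keeping hits of at least 100 matching bases. Promoter sequences came from RefSeq on GRCm38.p6, and protein sequences were not used here.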

Additional observations from a re-analysis of the deposited data

How the results depend on the processing

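No member and no listed pathway gene passed the adjusted threshold under any alternative tried. Over all genes, DESeq2 called 30, and the count was 0 under the others. The number of members whose libraries did not overlap was 2, and 4 to 8 with 1 library left out (13.9% to 22.0% of all genes) and 8 without both libraries numbered 3 (26.5% of all genes), because fewer libraries overlap less often. The median log2 fold change of the members ranged from -0.37 without a filter on low counts, where all 44 entered, to 0.072 without *Ptprz1*+/+ replicate 2. Of the 18 tested members with values in every library, 8 turned sign when 1 library was left out, with ranges of -1.12 to 0.21 for *Adamts1*, -1.10 to 1.27 for *Adamts15*, -0.16 to 0.61 for *Adamts2*, -1.24 to 0.17 for *Adamts3*, -0.51 to 0.76 for *Adamts5*, -1.56 to 1.35 for *Mmp15*, -0.76 to 0.28 for *Mmp1b* and -0.13 to 0.48 for *Mmp2*. Without both libraries numbered 3, *Adamts15* turned to -1.13, *Adamts5* to 0.50 and *Mmp2* to -0.088. The cause of these turns was not tested. Same-numbered libraries of the 2 genotypes deviated from their group means with correlations of 0.45, -0.061 and 0.52 over genes. Replicates 1 and 3 thus shared deviations between genotypes, and replicate 2 did not. The labels give the numbers without stating a pairing, and the main test did not pair the samples. With the replicate block, *Adamts5* turned to 0.25 and *Mmp15* to 0.12, 0 members passed the adjusted threshold, and those at an unadjusted p under 0.05 went from 2 (6.45%, against 2.69% of all genes) to 4 (12.9%, against 5.07% of all genes), namely *Adamts14*, *Mmp11*, *Mmp10* and *Mmp23*. The 13 members below the filter rest on few reads, at most 92 counts in a library. Without the filter, 3 of 44 members (6.82%, against 2.51% of all genes) were at an unadjusted p under 0.05 and 0 passed the adjusted threshold, and *Mmp27*, 1 of the 13, passed the filter without the library labelled *Ptprz1*-/- replicate 3 (log2 fold change -1.82, unadjusted p = 0.0475, edgeR). With 3 libraries a genotype, an exact permutation p cannot go below 0.10.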
